A study of Mus musculus with 12 samples.

Results

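The 10 genes of the vascular endothelial growth factor (VEGF) family that carry the signal from ligand to receptor were followed across mouse intestinal muscle cultures and muscle strips. They are the ligand genes Vegfa, Vegfb, Vegfc, Vegfd and Pgf, the receptor tyrosine kinase genes Flt1, Kdr and Flt4, and the co-receptor genes Nrp1 and Nrp2. They were picked out by gene symbol, as a family named with earlier results of these data known, and are 10 of the 52550 genes in the deposited table. RNA-seq covered 4 groups of 3 wild-type (WT) libraries, which the series describes as biologically independent, and p-values measure the spread between them. The M scaffold group held primary cells of the intestinal muscle layers kept for 28 days on an electrospun gelatin scaffold in M medium, which the labels call differentiation medium. That medium was Advanced DMEM/F-12 with N2, B27 without vitamin A, N-acetylcysteine, HEPES and GlutaMAX, to which 100 ng/ml Noggin (a BMP antagonist), 1 µg/ml R-spondin1 (a Wnt agonist) and 10 µM Y27632 (a ROCK inhibitor) were added. The M plate group had the same medium and 28 days on a well plate. The P plate group had DMEM with 10% fetal bovine serum, called proliferation medium, for 28 days on a well plate, and both media held ABAM. Strips of intestinal muscle were the positive control, although in the labels they too bear a time of 28 days and share a source name with the cultures. Serum and the additives of M medium changed together, so the effect of any 1 of them cannot be told apart.

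VEGF ligands are secreted dimers that bind receptor tyrosine kinases, chiefly on endothelial cells, the cells that line blood and lymph vessels. Vegfa drives the growth of blood vessels through Kdr, while Flt1 binds it tightly, signals weakly and also exists as a soluble trap. Among the receptor kinases, Pgf and Vegfb bind Flt1 alone. Vegfc and Vegfd are the ligands of Flt4 and act on lymph vessels, and the neuropilins Nrp1 and Nrp2 bind ligands beside the kinases and also serve as receptors for semaphorins.

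Gene counts per library ranged from 21396485 to 116643512, and the members had 91 to 49540 counts in a library, so that all 10 passed the filter on low counts. Levels are in CPM, gene counts scaled to the library total with TMM factors. P plate replicate 1 stood apart from its group, with 9 macrophage markers that summed to 21345 CPM against 4032 and 2255 CPM in replicates 2 and 3. M scaffold replicate 3 also stood apart, with 14 pan-endothelial markers that summed to 277 CPM against 1628 and 1141 CPM in replicates 1 and 2. Smooth muscle markers summed to 2605 to 10522 CPM in the cultures and to 32987 to 34288 CPM in strips, and 5 epithelial markers to 2.46 to 5.08 CPM in the cultures and 28.6 to 147 CPM in strips. Pan-endothelial markers were near absent in P plate, at 50.6 to 68.3 CPM in sum, with only 4 of the 14 genes at a mean of 1 CPM or more and the junction cadherin Cdh5 at 0.307 to 0.438 CPM. They summed to 1967 to 2262 CPM in M plate and 196 to 314 CPM in strips.

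Between M medium and serum culture, Flt4, Kdr and Vegfd were called higher in both M plate and M scaffold. In M plate over P plate, Flt4, Kdr and Vegfd rose and Vegfa fell at an adjusted p under 0.05 in edgeR. These are 4 of 10 members against 24.9% of the 17700 genes tested, with 3 higher against 14.3% of genes and 1 lower against 10.6%. Libraries of the groups did not overlap for 4 members, against 41.9% of genes. In M scaffold over P plate, Flt4, Kdr, Vegfd and Flt1 rose, which is 4 of 10 against 24.7% of genes, with 4 higher against 15.1% and 0 lower against 9.61%. Libraries did not overlap for 5 members, against 34% of genes. Between M scaffold and M plate, edgeR called 0 of 10 members, against 3.18% of genes (1.53% higher and 1.64% lower), and there were also 0 at an unadjusted p under 0.05, 0 in DESeq2 and 0 in limma-voom. Libraries did not overlap for 2 members there, against 33.3% of genes. The fits that gave 0 members took no account of the pairing of M scaffold and M plate by replicate, which was taken from the data. A fit to their 6 libraries that blocked on replicate called 1 member, Flt1 (1.01, adjusted p = 0.0211), and 1718 genes. A block of this kind in all 12 libraries did not call Flt1. The share of members called was near or below the share of all genes in M scaffold over M plate and against strips.

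Against strips, Vegfc, Vegfd and Flt1 rose in each culture, and 0 members fell, in the edgeR fit to all 12 libraries. In M scaffold, Kdr, Flt4 and Nrp1 rose as well, 6 of 10 against 52.1% of genes called, 24.5% called higher and 27.6% called lower. In M plate, Kdr and Flt4 rose as well, 5 of 10 against 54.9%, with 26.5% of genes higher and 28.4% lower. In P plate, Vegfa and Nrp1 rose as well, 5 of 10 against 63.1%, with 30.5% of genes higher and 32.7% lower. Libraries did not overlap with strips for 6 members in M scaffold, 7 in M plate and 5 in P plate, against 65.3%, 73.2% and 67.8% of genes. The median log2 fold change of the members was 0.95 in M plate over P plate, 0.83 in M scaffold over P plate and 0.06 in M scaffold over M plate, and -0.00, -0.03 and 0.01 over all genes. Over strips it was 1.84 in M scaffold, 2.27 in M plate and 1.40 in P plate, and -0.02, -0.01 and -0.03 over all genes. Comparisons that use the same group share its libraries and are not independent. In RNA of whole cultures, fewer cells of a type and less RNA per cell cannot be told apart.

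**Figure D1:**
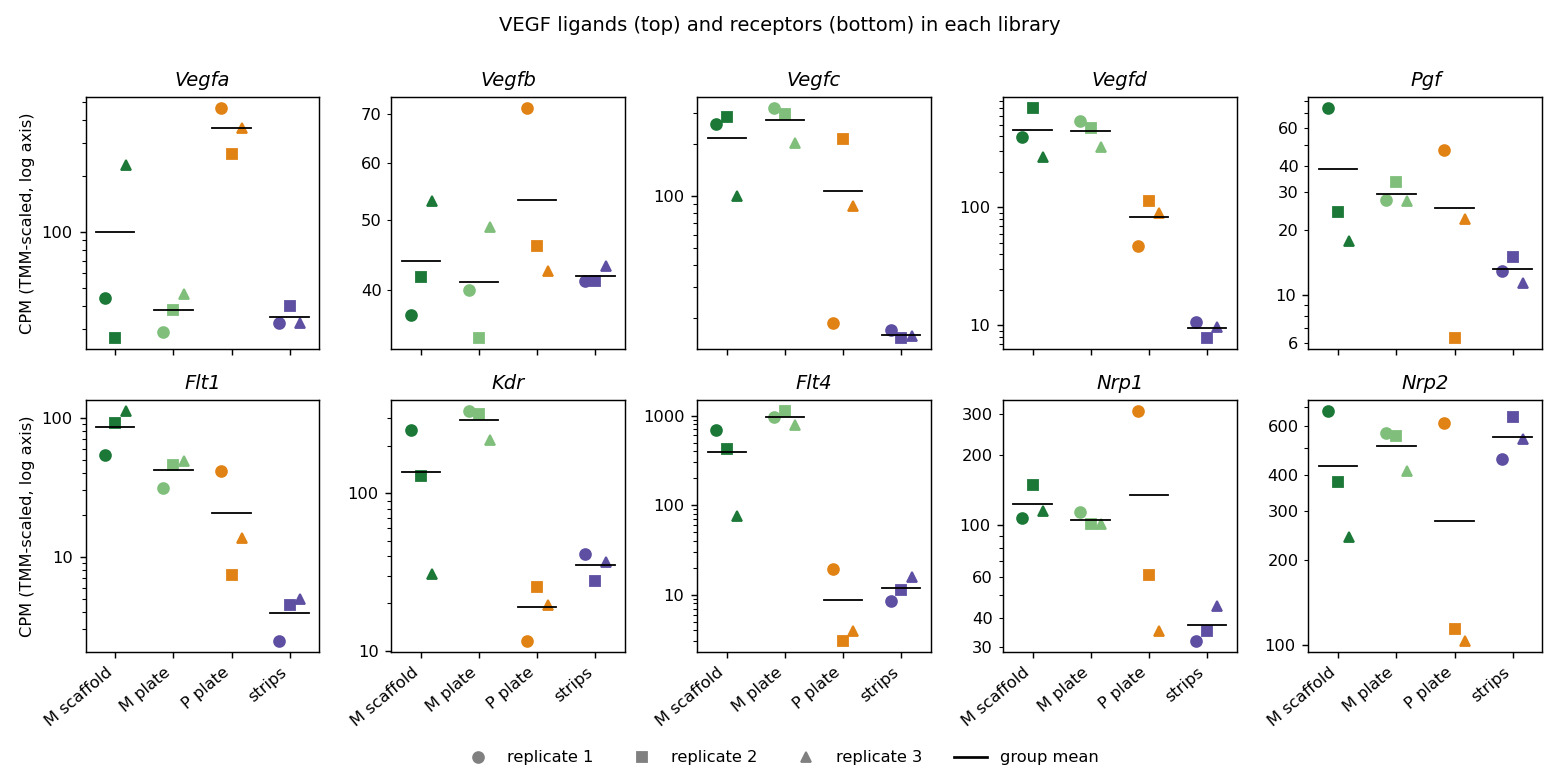
Level of each VEGF family gene in every library, in TMM-scaled CPM on log axes whose ranges differ between panels. Symbols are replicates, black lines are group means, and M scaffold, M plate, P plate and strips run from left to right; Flt4 is at 779 to 1126 CPM in M plate and at 3.07 to 19.5 CPM in P plate.

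Vegfa (ENSMUSG00000023951, GRCm38 chromosome 17, 46016993 to 46032369, minus strand) had its highest level in serum culture. It had 44.3, 26.9 and 229 CPM in M scaffold, 28.9, 38.1 and 46.3 CPM in M plate, 465, 262 and 363 CPM for P plate and 32.2, 39.8 and 32.4 CPM in strips. Every P plate library lay above all others, and M scaffold replicate 3 was the only other library above 46.3 CPM. The mean level of Vegfa was 37.8 ± 8.68 CPM in M plate, against 363 ± 101 CPM in P plate (SD, n = 3 each), a log2 fold change of -3.26 ± 0.68 (SE, adjusted p = 0.00638). P plate over strips gave 3.39 ± 0.69 (adjusted p = 0.0015), while M plate over strips gave 0.12 ± 0.63 (adjusted p = 0.883). For M scaffold over P plate the value was -1.86 ± 0.64 and missed the threshold (adjusted p = 0.059), although the libraries did not overlap; it was called in DESeq2 (-1.85, adjusted p = 0.0139), in limma-voom (-2.48, adjusted p = 0.0161) and with the replicate block in 12 libraries (-2.22, adjusted p = 0.0385). Without M scaffold replicate 3 it was -3.35 (adjusted p = 0.000121), and M scaffold over M plate changed sign, to -0.09 (adjusted p = 0.919) from 1.41 ± 0.64 (adjusted p = 0.234) with all libraries. M scaffold over strips was 1.53 ± 0.64 (adjusted p = 0.0663) and was called without M scaffold replicate 1 (1.89, adjusted p = 0.0364) or replicate 2 (1.96, adjusted p = 0.0148). In order of group means P plate was followed by M scaffold, M plate and strips, and no neighbours in that order passed the test.

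Vegfa is known as a target of the hypoxia-inducible factors, and other such targets were lower in M plate than in P plate as well. Among 15 hypoxia-inducible genes other than Vegfa, 8 fell in M plate and 0 rose, against 10.6% of all genes lower and 14.3% higher, and the median log2 fold change of all 15 was -1.43. The glucose transporter gene Slc2a1 had 42.1, 59.2 and 46 CPM in M plate, against 645, 257 and 411 CPM in P plate (log2 fold change -3.16 ± 0.70, adjusted p = 0.00866). Bnip3, which acts in mitophagy, fell by 2.62 ± 0.69 on the log2 scale (adjusted p = 0.0203) and missed the threshold without any 1 M plate library (adjusted p = 0.0524 to 0.0765). Ero1l, an oxidase of the endoplasmic reticulum, fell by 2.56 ± 0.79 (adjusted p = 0.0375), and leaving out any 1 P plate, M plate or strip library other than P plate replicate 2 ended that call (adjusted p = 0.0517 to 0.118). The count of 8 became 4 without M plate replicate 1 or replicate 3 and 5 without M plate replicate 2 or P plate replicate 3. Of 11 oxygen-sensing genes 3 were called, which is near the 24.9% of all genes called. Hif3a rose by 3.04 (adjusted p = 0.000204), Egln3 and Cited2 fell by 1.99 (adjusted p = 0.0212) and 0.68 (adjusted p = 0.031), and without any 1 M plate library 1 call was left. For M scaffold over P plate, 1 of the 15 hypoxia-inducible genes fell and 0 rose, where 24.7% of all genes were called. The 1 was Pfkfb3 at -1.11 (adjusted p = 0.0376), and 10 of the 12 single-library omissions ended that call. Without M scaffold replicate 3 there were 11 called, and without P plate replicate 1 there were 2. Over all genes, 3232 to 4818 were called in M scaffold over P plate with 1 library left out.

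M scaffold replicate 3, the library with 229 CPM of Vegfa, also had the highest level within its group of 14 of the 15 hypoxia-inducible genes, all but Adm, and of 7 of the 11 oxygen-sensing genes. The share of all genes with their highest level in this library was not worked out, so the counts cannot be set against it. Slc2a1 stood there at 530 CPM against 84.8 and 73.9 CPM in M scaffold replicates 1 and 2, and Bnip3 at 94 against 19.1 and 8.67 CPM. Ldha, a lactate dehydrogenase of glycolysis, had 1053 against 518 and 352 CPM, and Egln3, an oxygen-sensing prolyl hydroxylase that is itself induced by hypoxia, 345 against 130 and 49.2 CPM. These genes moved with Vegfa across the libraries of M scaffold, and their part in its level was not tested. Relative to M plate, the 15 genes in M scaffold had a median of 0.93 with 0 called in edgeR (9 at an unadjusted p under 0.05, 5 called in DESeq2 and 0 in limma-voom), 2 without M scaffold replicate 2 and 1 without M scaffold replicate 3. Of 11 oxygen-sensing genes Egln3 was the 1 called there, at 2.38 (adjusted p = 0.0456), where 3.18% of all genes were called. Egln3 missed the threshold without M scaffold replicate 3, at 1.41 (adjusted p = 0.082), in 7 other single-library omissions, and with the replicate as a block in the 6 libraries, at 1.98 (adjusted p = 0.0972).

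**Figure D2:**
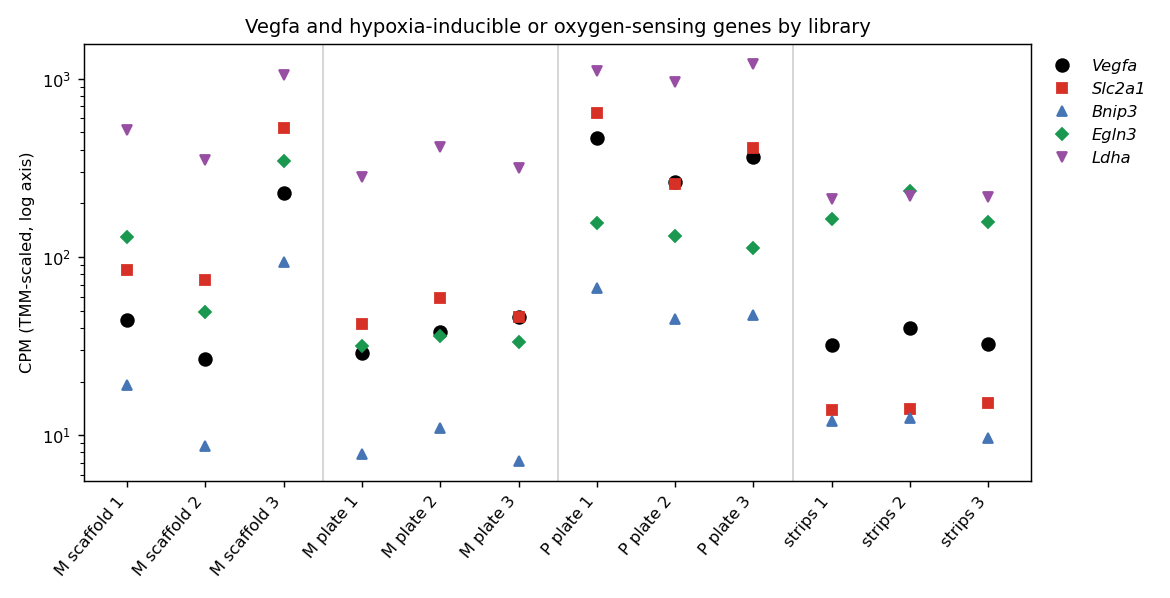
Vegfa, the hypoxia-inducible genes Slc2a1, Bnip3 and Ldha and the oxygen-sensing gene Egln3 in each library, in TMM-scaled CPM on a log axis. Each symbol is 1 library; M scaffold replicate 3, has 229 CPM of Vegfa and 530 CPM of Slc2a1, above the other M scaffold libraries for all 5 genes.

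The Flt1 ligands Pgf and Vegfb showed no called difference in any of the 6 comparisons in the edgeR fit to all 12 libraries. Placental growth factor, Pgf (ENSMUSG00000004791, chromosome 12, 85166635 to 85177790, minus strand), had 74, 24.3 and 17.9 CPM in M scaffold, 27.6, 33.4 and 27.3 CPM in M plate, 47.3, 6.33 and 22.6 CPM for P plate and 13, 15.1 and 11.4 CPM in strips. All libraries in M medium lay above all strips, while P plate ran from below the strips to above M plate. M scaffold over strips gave a log2 fold change of 1.56 ± 0.65 (adjusted p = 0.0664) and M plate over strips 1.16 ± 0.65 (adjusted p = 0.149). With the 6 compared libraries alone both were called, at 1.56 (adjusted p = 0.0391) in M scaffold and 1.18 (adjusted p = 0.000177) in M plate. M plate was also called with the replicate block there (1.18, adjusted p = 0.000258), and M scaffold in DESeq2 (1.54, adjusted p = 0.0308). The M scaffold value was called without P plate replicate 1 (1.55, adjusted p = 0.0315), P plate replicate 2 (1.56, adjusted p = 0.0225) or M scaffold replicate 3 (1.91, adjusted p = 0.0394), and P plate over strips, at 0.95 ± 0.64 (adjusted p = 0.218), was called without P plate replicate 2 (1.41, adjusted p = 0.0405). The order of Pgf means was M scaffold, M plate, P plate and strips, and no neighbours passed the test. Vegfb (ENSMUSG00000024962, chromosome 19, 6982473 to 6987651, minus strand) had the narrowest range, with 36.9, 41.6 and 53.1 CPM in M scaffold, 39.9, 34.3 and 48.9 CPM in M plate, 71.4, 46 and 42.5 CPM for P plate and 41.1, 41.1 and 43.1 CPM in strips. Its groups overlapped throughout, its log2 fold changes ran between -0.38 and 0.35, and no neighbours in the order P plate, M scaffold, strips and M plate passed the test.

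The lymphatic ligands Vegfc and Vegfd stood higher in every culture than in the muscle strips. Vegfd (ENSMUSG00000031380, chromosome X, 164373378 to 164402650, plus strand) had 398, 695 and 265 CPM in M scaffold, 545, 467 and 327 CPM in M plate, 47.4, 113 and 89.4 CPM for P plate and 10.7, 7.84 and 9.66 CPM in strips. The groups formed 3 steps without overlap, with M scaffold and M plate together at the top, P plate between and strips at the bottom. M plate over P plate was 2.42 ± 0.40 on the log2 scale (adjusted p = 0.00164) and M scaffold over P plate 2.44 ± 0.40 (adjusted p = 0.0013). M scaffold over strips was 5.59 ± 0.46 (adjusted p = 1.98e-05), M plate over strips 5.57 ± 0.46 (adjusted p = 1.33e-05) and P plate over strips 3.14 ± 0.41 (adjusted p = 8.88e-05). M scaffold and M plate, the neighbours at the top, did not differ beyond their spread (0.02 ± 0.38, adjusted p = 0.984).

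Vegfc (ENSMUSG00000031520, chromosome 8, 54077606 to 54187096, plus strand) had 259, 287 and 100 CPM in M scaffold, 321, 296 and 201 CPM in M plate, 18.5, 213 and 88.2 CPM for P plate and 17, 15.3 and 15.6 CPM in strips. P plate ran from just above the strips to above the lowest M plate library, so it overlapped M plate and M scaffold but not strips. M scaffold over strips gave 3.75 ± 0.73 (adjusted p = 0.00185), M plate over strips 4.09 ± 0.74 (adjusted p = 0.00104) and P plate over strips 2.74 ± 0.70 (adjusted p = 0.00606). The last of these was 1.74 without P plate replicate 2, and was not called with the replicate block in the 6 compared libraries (2.15, adjusted p = 0.0963). M plate over P plate missed the threshold at 1.35 ± 0.67 (adjusted p = 0.165), but was called without P plate replicate 2, at 2.35 (adjusted p = 0.0246), as was M scaffold over P plate, at 2.01 (adjusted p = 0.043). In order of means M plate stood above M scaffold, P plate and strips, and of these neighbours only P plate and strips passed the test.

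Genes that process or bind VEGF ligands outside the cell showed both directions between the media. Among 15 such genes, 2 rose and 3 fell in M plate over P plate, which is near the 24.9% of all genes called, and the median over all 15 was -0.21. Adamts3, the protease that activates Vegfc together with Ccbe1, rose by 1.73 (adjusted p = 0.0159) and was not called without M plate replicate 1 (1.37, adjusted p = 0.0695) or P plate replicate 3 (1.56, adjusted p = 0.0626). Adamts1, a protease that binds Vegfa, rose by 1.55 (adjusted p = 0.000651). Ccn2 and Thbs1, matrix proteins that bind Vegfa, fell by 2.20 (adjusted p = 0.0014) and 1.74 (adjusted p = 0.000691). The gelatinase gene Mmp2 fell by 1.46 (adjusted p = 0.0169), and was not called without P plate replicate 3 (adjusted p = 0.06), M plate replicate 1 (adjusted p = 0.059) or M plate replicate 2 (adjusted p = 0.0677), or with the block in the 6 libraries (adjusted p = 0.108). Without M plate replicate 1 the 5 calls became 3. Against strips 11 of the 15 genes rose in M scaffold, 13 in M plate and 13 in P plate, and 0 fell in each, against 24.5%, 26.5% and 30.5% of all genes called higher.

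Between genes, levels were compared as FPKM, which is CPM per kilobase of exon. The 5 ligand genes summed to 330, 446 and 244 FPKM in M scaffold, 398, 356 and 269 FPKM in M plate, 197, 226 and 192 FPKM in P plate and 49, 49.6 and 48.7 FPKM in strips. Vegfd made up 45.1% to 64.7% of this sum in M scaffold, 50.6% to 56.8% in M plate, 10% to 20.7% in P plate and 6.56% to 9.07% in strips. Vegfa made up 1.41% to 22% in M scaffold, 1.7% to 4.02% in M plate, 27.1% to 55.2% in P plate and 15.3% to 18.7% in strips. In strips Vegfb took the largest share, at 51.6% to 55.1%. The leading ligand transcript per length was thus Vegfd in all 6 libraries in M medium, Vegfa in P plate replicates 1 and 3, Vegfc in P plate replicate 2 at 38.6%, and Vegfb in all strips.

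**Figure D3:**
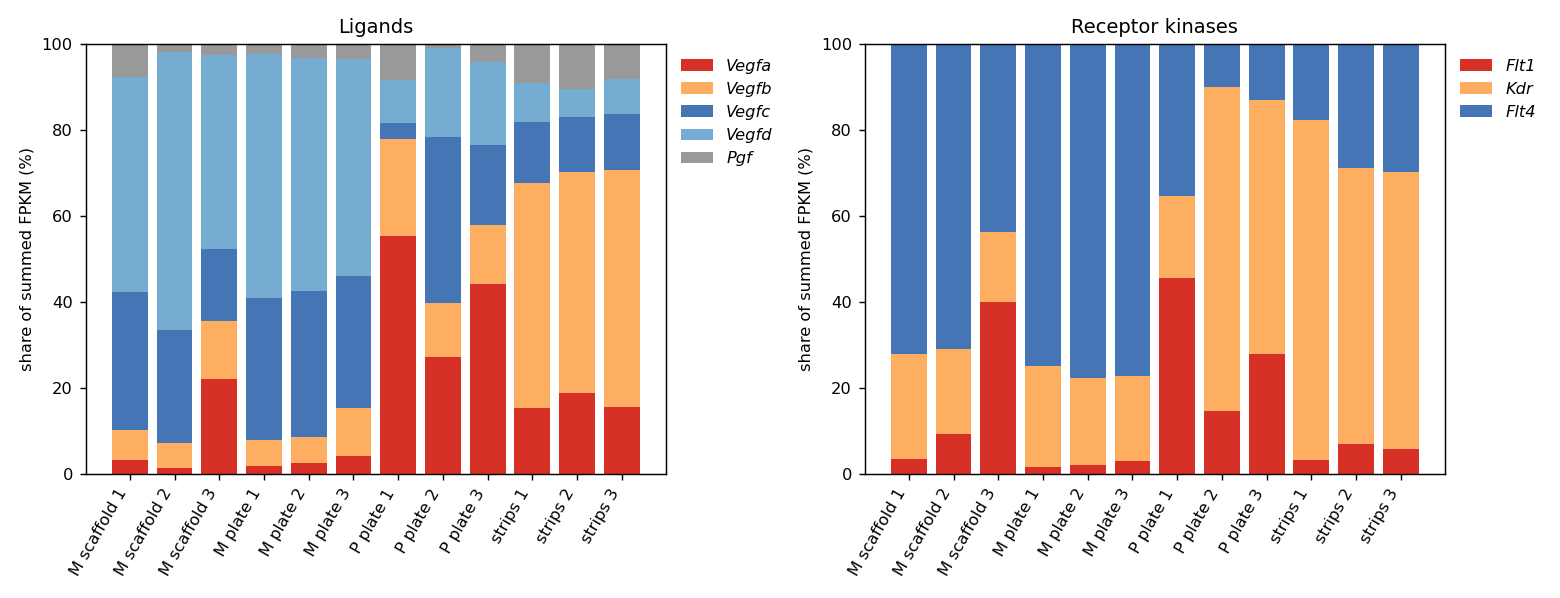
Share of each ligand gene (left) and each receptor kinase gene (right) in the summed FPKM of its set, in percent, for each library. Vegfd makes up 50.6% to 56.8% of ligand FPKM in M plate and Vegfb 51.6% to 55.1% in strips, while Flt4 makes up 75% to 77.8% of receptor kinase FPKM in M plate and Kdr 64.2% to 79.1% in strips.

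The receptor kinase genes are known to be expressed mainly in endothelial cells, and Flt1 and Kdr lie on the same chromosome. Flt1 (ENSMUSG00000029648) lies on chromosome 5, 147561604 to 147726011, and Kdr (ENSMUSG00000062960) on chromosome 5, 75932827 to 75978458, both on the minus strand. Their promoters are shown because the Flt1 mean was higher and the Kdr mean lower in M scaffold than in M plate, a contrast that was called for neither gene. Each is given as the 247 bases that end 4 bases before the annotated RefSeq start (RefSeq, GRCm38.p6, minus strand, 5′ to 3′). Capitals mark GGAA on either strand (TTCC on the other), the core letters that ETS factors of endothelial cells read.
Flt1, chr5:147726015-147726261: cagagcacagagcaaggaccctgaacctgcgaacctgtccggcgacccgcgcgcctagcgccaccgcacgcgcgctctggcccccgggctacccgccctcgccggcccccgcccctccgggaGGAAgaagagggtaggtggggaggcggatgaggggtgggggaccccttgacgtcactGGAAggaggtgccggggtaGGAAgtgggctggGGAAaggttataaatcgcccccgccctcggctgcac
Kdr, chr5:75978459-75978705: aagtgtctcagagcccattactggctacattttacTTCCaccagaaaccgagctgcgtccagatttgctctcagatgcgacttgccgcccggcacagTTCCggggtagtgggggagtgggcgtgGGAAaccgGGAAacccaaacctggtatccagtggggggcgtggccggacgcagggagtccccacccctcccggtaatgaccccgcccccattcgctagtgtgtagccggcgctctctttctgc
Each window held 4 matches of GGAA, which 93.2% of 32841 promoter windows of the same length held at least once, on both strands. GCGTG and ACGTG are the forms of the core that hypoxia-inducible factors bind, and GCGTG matched 1 time in Flt1 and 2 times in Kdr (27.9% of windows), and ACGTG in neither (16.4%). TATAAA matched 1 time in Flt1 and not in Kdr (12.3%), and GGGCGG 3 times in Flt1 and 2 times in Kdr (32.4%). GCGTG and GGGCGG can share bases with one another. GC content was 70.9% in Flt1 and 61.5% in Kdr, against a median of 52.2% over all windows. Matches describe the letters in these windows only.

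Flt1 had its highest values on the scaffold, with 53.9, 92 and 112 CPM in M scaffold, 31.5, 45.8 and 48.7 CPM in M plate, 41.4, 7.35 and 13.7 CPM for P plate and 2.49, 4.46 and 4.95 CPM in strips. All M scaffold libraries lay above all others, strips lay below all cultures, and M plate and P plate overlapped. M scaffold over P plate was 2.05 ± 0.56 on the log2 scale (adjusted p = 0.0219). It was 3.07 without P plate replicate 1, and missed the threshold without P plate replicate 3 (1.85, adjusted p = 0.0695), M scaffold replicate 2 (2.03, adjusted p = 0.0507) or M scaffold replicate 3 (1.81, adjusted p = 0.0573). The call was also lost with the 6 compared libraries alone (adjusted p = 0.123) and with the replicate block in 12 libraries (adjusted p = 0.0506) or in those 6 (adjusted p = 0.197). M scaffold over M plate was 1.04 ± 0.54 and was not called (adjusted p = 0.3). The labels state no pairing, but replicate numbers were taken to pair these 2 groups from correlations in the same data. With the replicate as a block in their 6 libraries the difference was called, at 1.01 (adjusted p = 0.0211), while the block in all 12 libraries gave 1.03 (adjusted p = 0.362). M plate over P plate was 1.01 ± 0.54 (adjusted p = 0.199), and 2.00 (adjusted p = 0.00535) without P plate replicate 1.

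Over strips, Flt1 rose in each culture, by 4.43 ± 0.62 in M scaffold (adjusted p = 0.000295), 3.40 ± 0.59 in M plate (adjusted p = 0.000827) and 2.39 ± 0.57 in P plate (adjusted p = 0.00424). The P plate value was 1.35 without P plate replicate 1, the library with the high macrophage markers, whose part in it was not tested. The P plate call was lost with the replicate block in the 6 compared libraries (1.98, adjusted p = 0.0966). Counts per gene do not separate the membrane-bound from the soluble form of Flt1. The order of means was M scaffold, M plate, P plate and strips, and of the neighbours only P plate and strips passed the test.

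Kdr, the main signalling receptor of Vegfa, had its highest mean in M plate. It measured 253, 129 and 30.6 CPM in M scaffold, 334, 321 and 217 CPM in M plate, 11.6, 25.5 and 19.4 CPM for P plate and 41.4, 27.8 and 36.7 CPM in strips. M plate lay above P plate and strips without overlap, and M scaffold replicate 3 lay within the range of strips. M plate over P plate was 3.95 ± 0.64 on the log2 scale (adjusted p = 0.0016), with means of 291 ± 64.1 CPM and 18.8 ± 6.96 CPM, and M scaffold over P plate was 2.87 ± 0.61 (adjusted p = 0.00655). The M scaffold call was lost with the 6 compared libraries alone (2.89, adjusted p = 0.0665) and with the replicate block there (2.47, adjusted p = 0.206). M plate over strips was 3.04 ± 0.61 (adjusted p = 0.00196). M scaffold over strips was 1.96 ± 0.59 (adjusted p = 0.0176), and missed the threshold without M scaffold replicate 1 (1.17, adjusted p = 0.0861), strips replicate 2 (1.80, adjusted p = 0.062) or strips replicate 3 (1.97, adjusted p = 0.051). M scaffold over M plate was -1.08 ± 0.57 (adjusted p = 0.311), with overlap. In order of means M plate stood above M scaffold, strips and P plate, and only M scaffold and strips passed the test among neighbours. P plate over strips was -0.91 ± 0.58 (adjusted p = 0.191), although the libraries did not overlap. It was called without M scaffold replicate 3 (-0.90, adjusted p = 0.0378) and with the 6 compared libraries alone (-0.94, adjusted p = 0.0419).

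Flt4 (ENSMUSG00000020357, chromosome 11, 49609263 to 49652739, plus strand), the receptor of lymphatic endothelium, had the largest fold change of the 10 members between the media. It had 687, 428 and 74.8 CPM in M scaffold, 972, 1126 and 779 CPM in M plate, 19.5, 3.07 and 3.89 CPM for P plate and 8.46, 11.4 and 15.6 CPM in strips. Every library in M medium lay above every P plate and strip library, and M plate lay above M scaffold without overlap. M plate averaged 959 ± 174 CPM and P plate 8.81 ± 9.23 CPM, a log2 fold change of 6.76 ± 0.99 (adjusted p = 0.000835), which was 8.11 without P plate replicate 1. M scaffold over P plate was 5.49 ± 0.93 (adjusted p = 0.00171), with 4.83 to 6.86 when 1 library was left out. M scaffold over strips was 5.06 ± 0.91 (adjusted p = 0.00117) and M plate over strips 6.34 ± 0.97 (adjusted p = 0.000362). M scaffold over M plate was -1.27 ± 0.78 and was not called (adjusted p = 0.38), nor was P plate over strips (-0.42 ± 0.78, adjusted p = 0.656). In order of means M plate stood above M scaffold, strips and P plate, and only M scaffold and strips differed among neighbours.

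The summed markers of lymphatic endothelium were high in the libraries where Flt4 was high, although not every marker followed the sum. The 7 lymphatic markers summed to 1483, 1191 and 254 CPM in M scaffold, 3475 to 4345 CPM in M plate, 70.1 to 94.9 CPM for P plate and 38.2 to 57 CPM in strips. In M plate over P plate 5 of the 7 rose, while Pdpn (-0.17, adjusted p = 0.543) and Foxc2 (0.96, adjusted p = 0.164) were not called. In M scaffold over P plate 5 rose and 1 fell. In P plate over strips 4 fell, while Pdpn and Foxc2 rose, by 2.35 and 2.75. The lymphatic transcription factor gene Prox1 had 155, 77.4 and 15.1 CPM in M scaffold, 247, 225 and 205 CPM in M plate, 0.849, 0.707 and 0.893 CPM for P plate and 3.07, 4.09 and 7.2 CPM in strips. The 8 markers of blood endothelium summed to 154 to 233 CPM in M scaffold, 248 to 264 CPM in M plate, 208 to 307 CPM for P plate and 131 to 206 CPM in strips. In M plate over P plate 4 of the 8 rose, with Sox17 at 7.96 and Gja4 at 6.48, Efnb2 fell at -1.38 and 3 were not called, so the sum does not follow each marker. The part of the lymphatic and blood endothelial markers in the levels of Kdr and Flt4 was not tested.

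Relative to endothelial genes of the same library, the Flt1 ratio of M scaffold stood above that of M plate and strips in every library, while the Kdr ratios of these groups overlapped. The ratio is the log2 CPM of the receptor minus the mean log2 CPM of the 14 pan-endothelial markers, each with 0.5 CPM added. For Flt1 it was 0.13, 1.29 and 3.39 in M scaffold, -1.03, -0.66 and -0.39 in M plate and on average -1.49 ± 0.44 in strips (SD, n = 3). M scaffold lay above M plate without overlap by 2.30, and above strips by 3.10, and each exact permutation test gave p = 0.1, the smallest that 3 libraries against 3 can give (two-sided). Without M scaffold replicate 3, which had the highest Flt1 ratio, the difference from M plate was 1.40 and from strips 2.20.

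For Flt4 the ratio was 3.79, 3.50 and 2.80 in M scaffold, 3.90, 3.94 and 3.59 in M plate and -0.25, 0.27 and -0.09 in strips. M scaffold lay above strips by 3.39 and M plate above strips by 3.83, both without overlap (exact permutation p = 0.1 each). M scaffold minus M plate was -0.45 (exact permutation p = 0.2). For Kdr it was 2.35, 1.78 and 1.53 in M scaffold, 2.36, 2.14 and 1.75 in M plate and 1.98, 1.52 and 1.12 in strips, and all 3 groups overlapped. The Kdr differences were -0.20 for M scaffold minus M plate (exact permutation p = 0.6), 0.35 for M scaffold minus strips (p = 0.4) and 0.54 for M plate minus strips (p = 0.2), and with the panel median in place of its mean each changed sign, to 0.17, -0.16 and -0.33. The lower Kdr level of M scaffold replicate 3 stood beside lower endothelial markers in that library, while its Flt1 level did not follow them. These tests take no account of the pairing of M scaffold and M plate by replicate number, which was taken from the data and not from the labels. Within replicates 1, 2 and 3, M scaffold minus M plate was 1.16, 1.95 and 3.78 for Flt1, -0.01, -0.36 and -0.22 for Kdr and -0.11, -0.44 and -0.79 for Flt4. Flt1 and Flt4 each had 1 sign in all 3 pairs, while the Kdr difference of -0.01 in replicate 1 gives no direction. The smallest two-sided exact p that 3 pairs allow is 0.25. The unpaired test was made in 3 pairs of groups for each of 3 receptors, and none of the 9 can reach an adjusted p under 0.05. No ratio is given for P plate, where the panel was near absent.

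**Figure D4:**
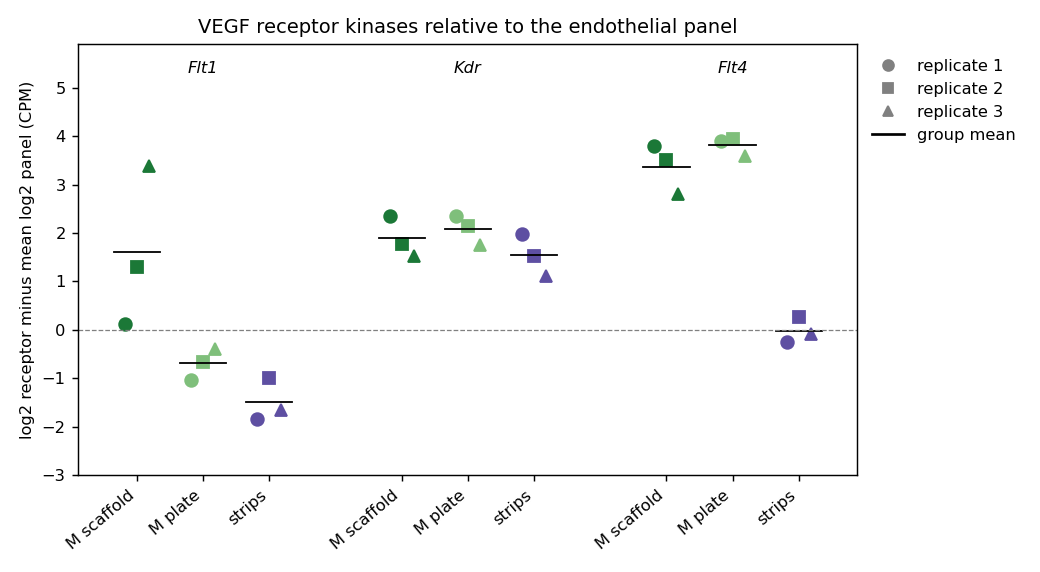
Log2 CPM of Flt1, Kdr and Flt4 minus the mean log2 CPM of 14 pan-endothelial markers (0.5 CPM added to each), by library. Symbols are replicates and black lines are group means; the Flt1 ratio is 0.13 to 3.39 in M scaffold and -1.03 to -0.39 in M plate, while Kdr overlaps between all 3 groups.

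Summed per length, the 3 receptor kinases stood at 116, 73.1 and 20.8 FPKM in M scaffold, 157, 176 and 122 FPKM in M plate, 6.71, 3.74 and 3.63 FPKM in P plate and 5.8, 4.79 and 6.33 FPKM in strips. Flt4 was 43.7% to 72.3% of that sum in M scaffold, 75% to 77.8% in M plate, 9.99% to 35.2% in P plate and 17.7% to 29.9% in strips. Kdr was 16.3% to 24.3% in M scaffold, 19.7% to 23.5% in M plate, 19.1% to 75.5% in P plate and 64.2% to 79.1% in strips. Flt1 was 40% of the sum in M scaffold replicate 3, against 3.45% and 9.32% in M scaffold replicates 1 and 2 and 1.48% to 2.95% in M plate. Thus Flt4 led in all libraries in M medium and Kdr in all strips.

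The co-receptor genes gave no call between the media with all libraries in, and P plate replicate 1 set the spread. Nrp1 (ENSMUSG00000025810, chromosome 8, 128358604 to 128503363, plus strand), which partners Kdr, had 107, 149 and 115 CPM in M scaffold, 114, 101 and 101 CPM in M plate, 309, 61.2 and 35.2 CPM for P plate and 32, 35.2 and 45 CPM in strips. M scaffold and M plate lay within P plate's range, and both lay above all strips. M plate over P plate was -0.36 ± 0.61 on the log2 scale (adjusted p = 0.709) and turned to 1.13 (adjusted p = 0.00767) without P plate replicate 1. M scaffold over P plate was -0.13 ± 0.61 (adjusted p = 0.906) and turned to 1.39 (adjusted p = 0.00248) without it. Over strips, Nrp1 was called in M scaffold, at 1.72 ± 0.63 (adjusted p = 0.0394), but leaving out any 1 of the 9 libraries of M scaffold, M plate or strips ended that call (adjusted p = 0.0529 to 0.115, at 1.56 to 1.87). In P plate it was 1.85 ± 0.63 (adjusted p = 0.0246), and 0.33 (adjusted p = 0.253) without P plate replicate 1, 1.73 (adjusted p = 0.0791) without strips replicate 1 and 1.79 (adjusted p = 0.0694) without strips replicate 2. M plate over strips, at 1.50 ± 0.62, missed the threshold (adjusted p = 0.0628) and was called without P plate replicate 1 (1.46, adjusted p = 0.00026) or replicate 3 (1.46, adjusted p = 0.0208). It was also called with the 6 compared libraries alone (1.51, adjusted p = 3.23e-05), with the replicate block there (1.52, adjusted p = 0.0003) and in DESeq2 (1.47, adjusted p = 0.0314). In order of Nrp1 means P plate stood above M scaffold, M plate and strips, and no neighbours passed the test. An 80-base exon of Mir1903 overlaps Nrp1.

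Nrp2 (ENSMUSG00000025969, chromosome 1, 62703285 to 62818695, plus strand), which partners Flt4, had 677, 380 and 243 CPM in M scaffold, 564, 550 and 416 CPM in M plate, 612, 114 and 104 CPM for P plate and 456, 646 and 538 CPM in strips. P plate replicates 2 and 3 lay below all other libraries, while P plate replicate 1 lay within the range of strips and of M scaffold. No comparison was called for Nrp2, with values from -0.98 ± 0.62 for P plate over strips (adjusted p = 0.187) to 0.88 ± 0.62 for M plate over P plate (adjusted p = 0.327), and so no neighbours in the order strips, M plate, M scaffold and P plate passed the test. Without P plate replicate 1, M scaffold over P plate was 2.02 (adjusted p = 0.00309), M plate over P plate 2.23 (adjusted p = 0.00224) and P plate over strips -2.36 (adjusted p = 0.000442). P plate replicate 1 had 13843 CPM of the macrophage lysozyme gene Lyz2 against 2256 and 1586 CPM in P plate replicates 2 and 3, and 24.3 CPM of the mesothelial gene Msln against 524 and 551 CPM. The part of these cell types in Nrp1 and Nrp2 was not tested.

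**Figure D5:**
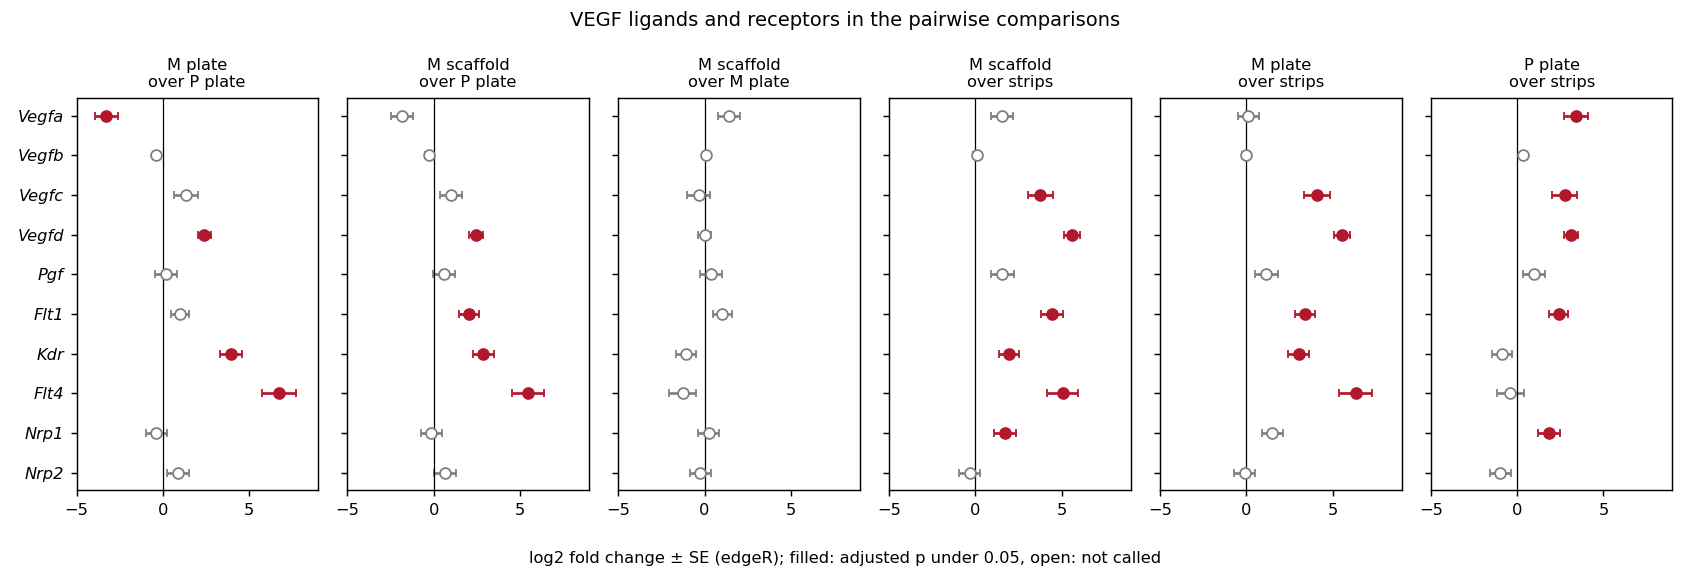
Log2 fold change of each VEGF family gene in the 6 pairwise comparisons, first group over second, with SE from edgeR. Filled symbols have an adjusted p under 0.05; Flt4 and Vegfa lie at 6.76 and -3.26 in M plate over P plate, and no symbol is filled in M scaffold over M plate.

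Semaphorins and plexins, which share the neuropilins, rose in 4 of 12 cases in M plate over P plate and fell in 0, with a median of 0.80 over all 12, where 14.3% of all genes rose and 10.6% fell. Plxnd1, a semaphorin receptor of endothelium, rose by 2.11 (adjusted p = 0.0031) and the ligand gene Sema3c by 1.91 (adjusted p = 0.0114). Over P plate, 3 rose and 1 fell in M scaffold, where 24.7% of all genes were called, with Plxnd1 at 2.73 (adjusted p = 0.000616). The call of Sema3g there was lost without any 1 P plate library (adjusted p = 0.0508 to 0.071) or M scaffold replicate 3 (adjusted p = 0.157), and in limma-voom (adjusted p = 0.0794). That of Sema3a was lost with the 6 compared libraries alone (adjusted p = 0.0697) and with the replicate block there (adjusted p = 0.184). The ligand gene Sema3a was the 1 call of the 12 between M scaffold and M plate, at -1.95 (adjusted p = 0.0409), where 3.18% of all genes were called. It had 47.2, 30 and 15 CPM in M scaffold and 109, 160 and 85.4 CPM in M plate. Leaving out any 1 library other than P plate replicates and M scaffold replicate 1 ended that call (adjusted p = 0.0633 to 0.168). With the replicate as a block, 4 of the 12 genes were called there in the 6 libraries and 0 in all 12 libraries.

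Partners and regulators of the receptors included genes restricted to endothelium, and 6 of 15 rose and 2 fell in M plate over P plate, against 14.3% of all genes higher and 10.6% lower, with a median of 0.01 over all 15. Robo4, an endothelial guidance receptor, had 106, 135 and 154 CPM in M plate, against 0, 0.0307 and 0.0319 CPM in P plate, under the floor of 3 counts. Cdh5 rose by 10.23 (adjusted p = 3.62e-05) and Ptprb, the phosphatase that acts on endothelial receptors, by 8.06 (adjusted p = 0.000273). Robo4 and Cdh5 also belong to the pan-endothelial markers. Efnb2, an ephrin that takes part in receptor uptake, fell by 1.38 (adjusted p = 0.00188). Itgav, an integrin subunit, fell by 0.37 (adjusted p = 0.0365), a call that was lost in 6 single-library omissions (adjusted p = 0.0528 to 0.121), with no filter (0.11), with the 6 libraries alone (0.0862) and with the block there (0.159). For M scaffold over P plate 5 of the 15 rose and 2 fell, where 24.7% of all genes were called. In M scaffold over M plate 0 were called by edgeR (3 at an unadjusted p under 0.05, 2 in DESeq2, 2 in limma-voom and 1 with the replicate as a block in the 6 libraries).

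Among 29 genes of the signalling relay below the receptors, 5 rose and 4 fell in M plate over P plate, with a median of -0.15, and 4 rose and 2 fell in M scaffold over P plate, with a median of -0.05. Both counts are near the share of all genes called, 24.9% in M plate and 24.7% in M scaffold. The 9 calls in M plate became 14 without P plate replicate 1, and the 6 in M scaffold became 3 without M scaffold replicate 2. Nos3, the endothelial nitric oxide synthase, had 11.5, 7.14 and 1.61 CPM in M scaffold, 14.6, 26.7 and 18.7 CPM in M plate, 0.192, 0.707 and 0.606 CPM for P plate and 3.09, 1.92 and 6.32 CPM in strips. It rose by 5.33 in M plate (adjusted p = 0.00106) and by 3.75 in M scaffold (adjusted p = 0.00533) over P plate. The M scaffold call was lost in limma-voom (3.02, adjusted p = 0.0793) and with the replicate block in the 6 compared libraries (3.46, adjusted p = 0.158). Pan-endothelial markers were near absent in P plate, and their part in the Nos3 values was not tested. The kinase gene Map2k1 fell by 1.11 (adjusted p = 0.00514) in M plate over P plate, and Pik3cb, a catalytic subunit of phosphoinositide 3-kinase, by 0.89 (adjusted p = 0.00147).

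Of 14 genes known to be induced by VEGF in endothelium, 10 rose and 1 fell in M scaffold over P plate, against 24.7% of all genes called, with a median of 1.65. In M plate over P plate 4 rose and 0 fell, near the 24.9% of all genes called, with a median of 0.35. Relative to M plate, 4 rose and 1 fell in M scaffold, against 3.18% of all genes, with a median of 0.32. Pan-endothelial markers were near absent in P plate, at 50.6 to 68.3 CPM in sum. Their median log2 fold change over P plate was 7.05 in M scaffold and 8.59 in M plate. The part of endothelial content in the counts over P plate was not tested. Kcne3, a potassium channel subunit, had 12.6, 10.3 and 4.03 CPM in M scaffold and 0.0287, 0.203 and 0.0786 CPM in M plate, where it was close to the floor of 3 counts, and its fitted log2 fold change was 6.41 (adjusted p = 0.00359). Apln, the ligand of the apelin receptor, had 24.4, 20.7 and 67.5 CPM in M scaffold and 3.5, 7.38 and 4.4 CPM in M plate (2.88, adjusted p = 0.0428). The transcription factor gene Egr3 rose by 1.84 (adjusted p = 0.0409). Plvap, a component of endothelial fenestrae, had 4.49, 9.26 and 2.79 CPM in M scaffold and 60.4, 51.1 and 55.1 CPM in M plate (-3.35, adjusted p = 0.00969). The calls on this list depended on single libraries: 5 in M scaffold over M plate became 1 without M plate replicate 2, where Apln (adjusted p = 0.138), Egr3 (adjusted p = 0.148) and Plvap (adjusted p = 0.0511) missed the threshold, and 2 without M plate replicate 1 or 3, M scaffold replicate 1 or 3, or any 1 strip library, and 3 without M scaffold replicate 2 or with the replicate block in 12 libraries. Over P plate, 7 were called in M scaffold without P plate replicate 2.

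Against strips, where 52.1% of all genes were called in M scaffold, 54.9% in M plate and 63.1% in P plate, the lists gave the following counts. Hypoxia-inducible genes rose in 12 of 15 cases in M scaffold, 6 in M plate and 12 in P plate, and fell in 0, 1 and 0. The 7 calls in M plate became 4 without M plate replicate 1 or 3 or strips replicate 1, and 12 with the 6 compared libraries alone or the replicate block there. Relay genes rose in 11 of 29 cases in M scaffold, 11 in M plate and 18 in P plate, and fell in 0, 4 and 4. The 11 calls in M scaffold became 6 without strips replicate 1 and 7 without strips replicate 2, and the 22 in P plate became 14 without P plate replicate 3, strips replicate 1 or strips replicate 3, 13 with the 6 compared libraries alone and 11 with the replicate block there. Receptor partners rose in 6 of 15 cases in M scaffold, 9 in M plate and 7 in P plate, and fell in 1, 1 and 7, and the 7 calls in M scaffold became 4 without strips replicate 1. Semaphorins and plexins rose in 3 of 12 cases in M scaffold, 5 in M plate and 2 in P plate, and fell in 1, 2 and 4, and the 4 calls in M scaffold became 7 without P plate replicate 1. VEGF-induced genes rose in 6 of 14 cases in M scaffold, 7 in M plate and 4 in P plate, and fell in 1, 3 and 5.

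Profiles over the 12 libraries were compared by Pearson's r of log2 CPM among the 11757 genes whose mean reached 5 CPM, as a description, since libraries of 1 group share their conditions. Nearest to Flt4 was Lyve1, a hyaluronan receptor of lymphatic endothelium, at r = 0.994, and nearest to Kdr was Pald1, at 0.985. Flt1 lay closest to the interleukin receptor gene Il1r1 at 0.979, followed by Apod and then by the endothelial receptor gene Acvrl1 at 0.970. Vegfd lay closest to the protease gene Adamts1 at 0.991, followed by Steap4 at 0.982 and the fibroblast marker Dcn at 0.980. Vegfc lay closest to Musk at 0.987. Vegfa lay closest to Tnfrsf9 at 0.977. The other nearest genes were Ifi30 for Vegfb at 0.903, Dip2a for Pgf at 0.895, Gltp for Nrp1 at 0.957 and Apc for Nrp2 at 0.963.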

How the data were processed

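The deposited table of counts per Ensembl gene held 1 column per library and was used as it stood, less 5 summary entries. Reads were aligned with STAR 2.6.0 to GRCm38 (mm10), per the submitters' processing notes, with libraries from the TruSeq RNA v2 kit, per the labels' protocols. Counting program, annotation, strand setting and joining of technical replicates: not given in the sources used here. Symbols, coordinates and exon lengths came from GENCODE M21. With edgeR 4.0.16 (R 4.3.3), genes were filtered with filterByExpr (17700 kept) and scaled by TMM, and 1 quasi-likelihood model with group as the only term, with 8 residual degrees of freedom, was fitted to 12 libraries. The 6 comparisons used two-sided F tests with Benjamini-Hochberg adjustment over all genes. SEs came from the F statistic. Alternatives were DESeq2 1.42.0, limma-voom (limma 3.58.1), RLE factors, no filter, the 6 compared libraries alone, a replicate block and leaving out each library; a fit without P plate replicate 1 and M scaffold replicate 3 was added after seeing the data. The deviations of same-numbered libraries from their group means correlated at 0.290, 0.196 and 0.304 between M scaffold and M plate, so the numbers were taken to pair these samples; in the other comparisons they share only a number. Chi-square per gene between replicates was 40.7 to 446, so no library was a repeat of another within sampling noise. Reads carry no molecular identifiers, so depth bounds counting error only. The fit was tested on simulated data. Members and lists were chosen with earlier results of these data known. Named genes were all members, up to 3 called genes per list and direction with the largest fold change, and markers that stood beside a result. Of the 3 genes nearest in profile to each member, at least the nearest was named. Ldha was named after its values were seen.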

Additional observations from a re-analysis of the deposited data

How the results depend on the processing

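Of the member results, Vegfa, Kdr and Flt4 kept their calls in M plate over P plate under every alternative run. The replicate block in the 6 compared libraries ended the call of Vegfd in M plate over P plate (2.47, adjusted p = 0.052), although numbers were not taken to pair those groups. Of 12 libraries, 8 correlated best with their own number. Called members became 7 in M plate over P plate and 8 in M scaffold over P plate without both P plate replicate 1 and M scaffold replicate 3. In M scaffold over P plate they were 2 with the 6 compared libraries alone and 2 with the replicate block there, in M scaffold over M plate 1 with that block (Flt1), and in P plate over strips 2 with that block. Leaving out 1 library gave 4 to 7 called members in M plate over P plate. Genes called in M plate over P plate were 4400, 2846 with 6 libraries alone, 1300 with the block there and 2630 to 5188 with 1 library left out. In M scaffold over P plate they were 4375, 1791 with 6 libraries alone and 915 with the block. In M scaffold over M plate they were 562, 1068 with 6 libraries alone, 1718 with the block there, 1004 in limma-voom, 2019 in DESeq2, 1355 in the 10 libraries, and 18 (without M plate replicate 2) to 1897 (without P plate replicate 1) with 1 library left out. Signs changed only for values that were not called with all libraries. Nrp1 in M plate over P plate was 0.31 with the block in 6 libraries, 0.27 in limma-voom and 1.13 in the 10 libraries, and -0.80 to 1.13 with 1 library left out. Nrp1 in M scaffold over P plate was 0.19 with the block in 12 libraries, 0.58 with it in 6, 0.49 in limma-voom, 1.44 in the 10 libraries and -0.55 to 1.39 with 1 left out. In M scaffold over M plate the 10 libraries gave -0.06 for Vegfa, -0.04 for Vegfb, 0.03 for Vegfc and 0.08 for Nrp2, and Vegfd was -0.04 with the block in 12 libraries, -0.05 with it in 6 and -0.02 in limma-voom. With 1 library left out there, Vegfa ran from -0.09 to 1.88, Vegfb from -0.06 to 0.24, Vegfc from -0.58 to 0.00, Vegfd from -0.41 to 0.29, Pgf from -0.47 to 0.74 and Nrp2 from -0.70 to 0.05. Likewise Pgf ran from -0.25 to 1.03 in M plate and from -0.26 to 1.45 in M scaffold over P plate, and Vegfb from -0.44 to 0.02 in M scaffold over P plate. Over strips, Vegfa ran from -0.05 to 0.27, Vegfb from -0.17 to 0.07 and Nrp2 from -0.24 to 0.03 in M plate, and Vegfb from -0.08 to 0.18 in M scaffold, where the 10 libraries gave -0.09. With the panel median, the Flt1 ratio of M plate over strips was -0.08, and the Kdr ratios were 0.17 for M scaffold over M plate, -0.33 for M plate over strips and -0.16 for M scaffold over strips. The causes of these changes were not tested, beyond the libraries or terms each setting leaves out or adds. In all, 1096 member values kept direction and call under an alternative, 43 gained a call, 32 lost it and 33 changed sign, and 4 of the sign changes, all of Nrp1 over P plate, were among those that gained a call.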
